A study of Mus musculus with 2 samples.

Results

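The Asb genes encode ankyrin repeat and SOCS box proteins, and 9 of them, Asb2, Asb4, Asb5, Asb8, Asb10, Asb11, Asb12, Asb14 and Asb15, are described here in skeletal muscle of mice that overexpress the nuclear receptor RXRγ. They were found by their symbol in the platform annotation among 18194 genes with a probe set of their own, and the array held the other 9 genes of the family as well. Transcripts were measured on Affymetrix MG430 arrays, where several short oligonucleotides read each transcript and make up its probe set. One array was hybridized with pooled muscle RNA of RXRγ mice, which carry an RXRγ transgene driven in muscle by the human α-actin promoter and come from 1 transgenic line, and the other with a pool from non-transgenic control mice. Both pools came from C57BL6 females at 4 months of age. The series design gives 5 samples per pool and the extraction protocol 3 animals. With 1 array per genotype no difference has a replicate check, the values have no error, and no test between the genotypes was possible. The 9 genes had been picked with their signals on these arrays known, so that every count of them is a description.

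An Asb protein is the part of an ubiquitin ligase that chooses the substrate. Its ankyrin repeats bind the protein to be marked, and its SOCS box docks, through elongins B and C, on Cullin 5 and the RING protein Rnf7. In this tissue the best known member is Asb2, which drives the breakdown of filamins in differentiating muscle cells and reduces muscle mass when overexpressed in mice. Several other members are enriched in striated muscle, and the substrates of many of them are poorly known.

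In RXRγ mice most of the measured Asb genes had a lower signal. Of the 9 genes, 8 had a probe set that exceeded 250 on at least 1 array and were taken as measured, and Asb4 did not reach that level. The study listed increases past a log2 difference of 0.4, and the same threshold is used here in both directions and without present calls. With it, 5 of the 8 were lower in RXRγ mice, 1 was higher, and 2 were neither. Over all 3780 measured genes, 20.1% were lower and 16.8% were higher. At a stricter log2 difference of 1, 4 of the 8 were lower and 1 was higher, where 4.1% of all measured genes were lower and 5.05% higher. The lower genes were Asb10, Asb14, Asb2, Asb11 and Asb15, and the higher gene was Asb12. The log2 ratio, taken as RXRγ over control mice throughout, had a median of -0.77 over the 8 genes and -0.04 over all measured genes. Asb10 and Asb14 exceeded 250 in control mice only, so the filter admitted them through the array where they were high. With 250 required on both arrays, 3 of 6 Asb genes were lower and their median was -0.33. Under that filter 501 of 3055 genes were lower and 371 were higher. The shares over all genes depend on the scaling, since 984 genes were lower and 504 higher after scaling to the array medians, against 760 lower and 636 higher with the signals as deposited, while the counts of the Asb genes were alike under both.

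**Figure D1:**
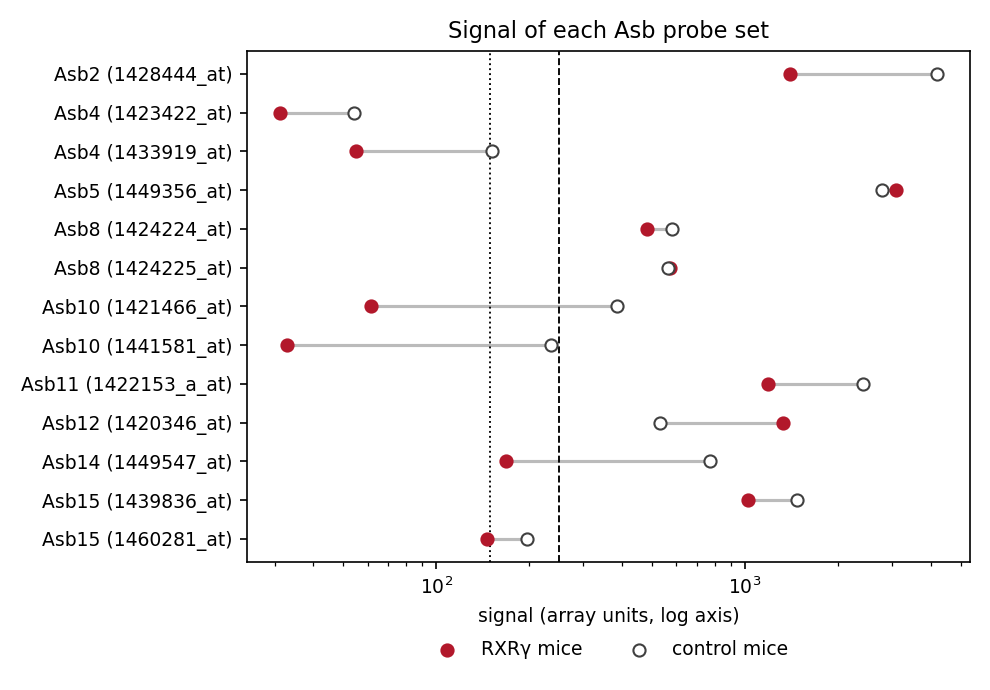
Signal of each of the 13 probe sets of the 9 Asb genes in RXRγ mice (filled circles) and control mice (open circles), from the single array of each genotype (log axis, array units). A signal of 150 is drawn as a dotted line and 250 as a dashed one; the filled circle lies to the left of the open one at every probe set of Asb2, Asb4, Asb10, Asb11, Asb14 and Asb15, and to the right at that of Asb12.

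The sequence just before the transcript start is shown for 6 of the genes, because it is where the regulators of a gene often bind. They were chosen as examples of the motifs, so that Asb5, which was neither higher nor lower, is shown and Asb11, which was lower, is not. The sequences are those of RefSeq on GRCm38.p6, bases -120 to -1 before an annotated start. All 9 genes had an entry, with 14 starts in all. Capitals mark the nuclear receptor hexamer AGGTCA and the MEF2 site in Asb14, the hexamer in Asb15, the MEF2 site in Asb12 and in the second annotated start of Asb5, the CArG box in the first annotated start of Asb2, and the E-box CANNTG in Asb10.
Asb14 (chr14:26894494-26894613, plus strand): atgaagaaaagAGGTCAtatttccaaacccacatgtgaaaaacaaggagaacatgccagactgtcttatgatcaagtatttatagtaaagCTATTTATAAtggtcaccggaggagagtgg
Asb15 (chr6:24528024-24528143, plus strand): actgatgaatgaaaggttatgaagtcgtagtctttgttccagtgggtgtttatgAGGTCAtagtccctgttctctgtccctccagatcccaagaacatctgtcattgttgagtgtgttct
Asb12 (chrX:95478130-95478249, minus strand): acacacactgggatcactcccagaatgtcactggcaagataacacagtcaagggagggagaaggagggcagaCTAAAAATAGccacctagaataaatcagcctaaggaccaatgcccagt
Asb5 (chr8:54571319-54571438, plus strand): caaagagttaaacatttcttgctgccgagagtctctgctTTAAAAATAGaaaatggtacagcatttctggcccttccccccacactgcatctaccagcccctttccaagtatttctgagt
Asb2 (chr12:103356002-103356121, minus strand): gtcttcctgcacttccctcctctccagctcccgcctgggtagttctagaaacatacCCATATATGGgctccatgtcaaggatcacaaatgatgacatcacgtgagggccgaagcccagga
Asb10 (chr5:24540979-24541098, minus strand): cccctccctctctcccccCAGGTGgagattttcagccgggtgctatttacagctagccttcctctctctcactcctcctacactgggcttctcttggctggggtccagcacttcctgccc
Both strands of a 300-base window, from 250 bases before each start to 50 after it, were searched. The hexamer AGGTCA, which RXR and its partner receptors recognise, lay in 2 of the 14 windows of Asb genes, those of Asb14 and Asb15, and in 16.3% of all 32851 windows. Both of these genes were lower in RXRγ mice, but so were Asb2, Asb10 and Asb11, whose windows hold no such hexamer. The DR1 motif, a pair of hexamers 1 base apart, was in none of the 14 windows and in 0.0396% of all windows. Only exact hexamers were searched, and such a pair is so rare that its absence here tells nothing of looser DR1 sites. The site of the muscle transcription factor MEF2 lay in 3 of the 14 windows and in 3.19% of all. Of the genes that hold it, Asb12 was higher in RXRγ mice, Asb14 was lower and Asb5 was neither, so that it was not found on 1 side only. The match of Asb14 lies at bases -30 to -21. Over all windows the TATA box letters TATAAA were most frequent at -30 on the plus strand and -29 on the minus strand. Whether the Asb14 match serves as a MEF2 site or as a TATA box was not tested. The CArG box, bound by serum response factor, lay in 2 windows, those of Asb2 and Asb5, and in 1.63% of all, and it was added to the search after the Asb2 sequence had been seen. E-boxes, the sites of MyoD and its relatives, were in 12 of the 14 windows and in 72.3% of all windows, and the FoxO site GTAAACA was in none of the 14 and in 3.65% of all windows. A match is a stretch of letters, and binding was not measured.

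**Figure D2:**
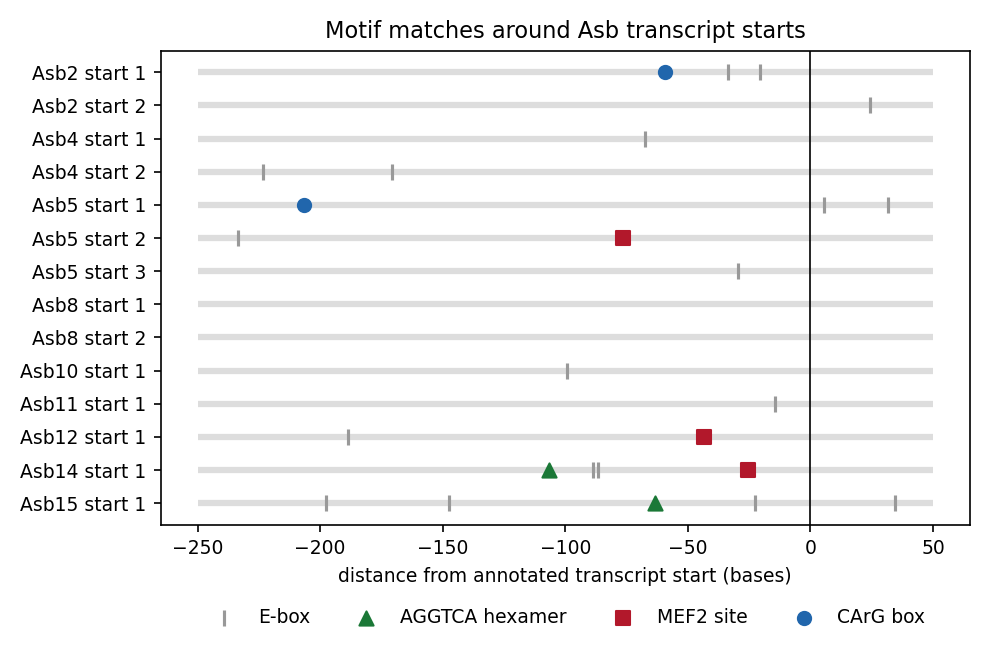
Motif matches in the windows around the 14 annotated transcript starts of the 9 Asb genes, by distance from the start in bases, 1 grey bar per window. Squares are MEF2 sites, triangles AGGTCA hexamers, circles CArG boxes and ticks E-boxes; the 2 hexamers lie before the starts of Asb14 and Asb15, and neither window of Asb8 holds a match.

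Asb2 had a signal of 1398 in RXRγ mice, against 4189 in control mice. The signal of RXRγ mice was thus 0.334 times that of control mice, a log2 ratio of -1.58. Of the 135 measured genes with a signal of at least 4189 in control mice, Asb2 among them, 1 was as low in its log2 ratio, which is Asb2 itself. Pdk4, also among them, was close, with 1811 in RXRγ mice, against 5362 in control mice (log2 ratio -1.57). The single probe set of Asb2 does not separate the products of the 2 annotated starts of the gene.

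Asb15, which is expressed mainly in muscle and alters protein synthesis when overexpressed in rat muscle, was also lower in RXRγ mice, but by less. Its brighter probe set had a signal of 1024.6 in RXRγ mice, against 1478 in control mice (log2 ratio -0.53). The other probe set was under the filter, with 146.2 in RXRγ mice, against 197.0 in control mice, and its log2 ratio of -0.43 had the same sign. The value of Asb15 lay nearest to the threshold among the lower genes, and 542 measured genes had a lower ratio.

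Asb11 takes part in the ubiquitination of Delta proteins in zebrafish, and in human cells it marks the pro-apoptotic protein BIK. Its probe set had a signal of 1192 in RXRγ mice, against 2409 in control mice, a 2.02-fold lower signal in RXRγ mice (log2 ratio -1.01). Of the 282 measured genes with a signal at least as high in control mice, 15 were as low in their log2 ratio, Asb11 included. Asb9, which lies next to Asb11 on the X chromosome, had a signal of only 1.8 in RXRγ mice, against 4.7 in control mice, so that of these neighbours Asb11 alone was detected at a level that allows a ratio.

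Little is known about the substrates of Asb10 and Asb14. Asb14 had a signal of 167.8 in RXRγ mice, against 769.4 in control mice, and was 4.59-fold lower (log2 ratio -2.20). It stayed above 150 on both arrays, the level that the study, together with a present call, takes as substantial expression. The calls were not available here. Of the 3780 measured genes, 17 had a lower ratio than Asb14.

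Asb10, whose human counterpart has been linked to glaucoma, was under 150 in RXRγ mice. Its brighter probe set had a signal of 61.7 in RXRγ mice, against 386.5 in control mice. Measured against the level of 150 it was at least 2.58-fold lower, while the signals themselves gave a log2 ratio of -2.65. With both signals held at 150 or above the log2 ratio was -1.37. The other probe set of Asb10 had 32.9 in RXRγ mice, against 236.3 in control mice, at least 1.58-fold lower. Both probe sets of the gene thus lay above 150 in control mice and under it in RXRγ mice.

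Asb12 went the other way. Its probe set had a signal of 1333 in RXRγ mice, against 530.1 in control mice, 2.51-fold higher (log2 ratio 1.33), and 96 of the 3780 measured genes had a higher ratio. Like Asb11, Asb12 lies on the X chromosome, so that the X-linked pair differed in opposite directions.

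Asb5 and Asb8 differed little between the genotypes. Asb5, which has been described in muscle satellite cells and in growing arteries of the rabbit, had a signal of 3099 in RXRγ mice, against 2790 in control mice (log2 ratio 0.15). The 2 probe sets of Asb8 had 482.9 and 574.4 in RXRγ mice and 582.7 and 564.9 in control mice. Their log2 ratios were -0.27 and 0.02, with a mean of -0.12, so that the probe sets of Asb8 did not share a direction. Without replicates these values do not show that the genes were unchanged.

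Asb4, which acts in the development of blood vessels and the placenta, was dim on both arrays. Its brighter probe set had a signal of 55.2 in RXRγ mice, against 151.9 in control mice, at the edge of the level of 150, and the other had 31.2 in RXRγ mice, against 54.1 in control mice. Both were lower in RXRγ mice, but signals this low allow no fold beyond 1.01.

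**Figure D3:**
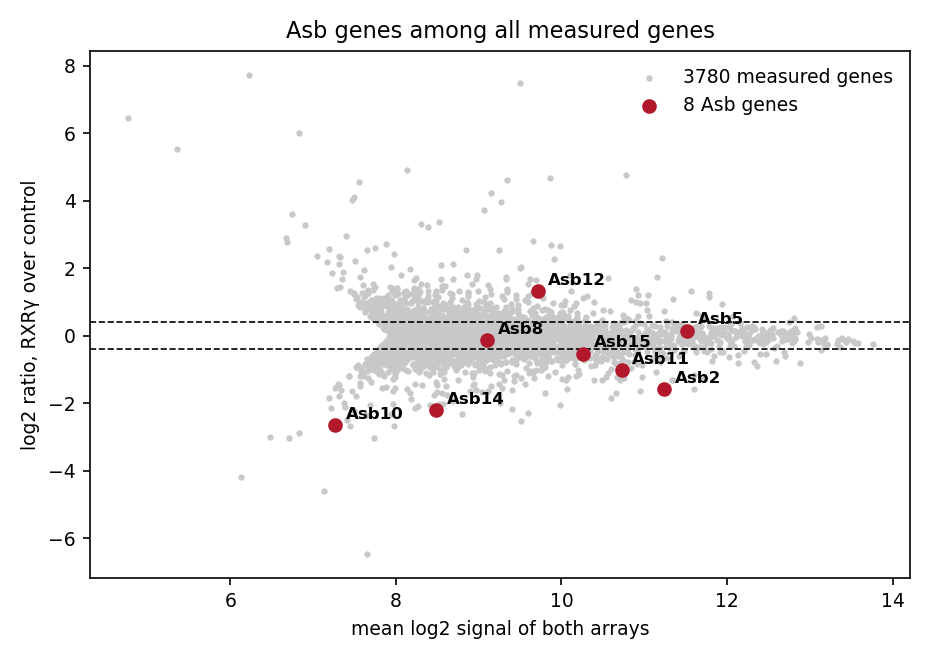
log2 ratio, RXRγ over control mice, against the mean log2 signal of both arrays, 1 grey point for each of the 3780 measured genes and a red point for each of the 8 measured Asb genes. Log2 ratios of 0.4 and -0.4 are dashed. Asb2 and Asb11 lie below the lower line at -1.58 and -1.01, and Asb12 lies above the upper line at 1.33.

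The other 9 Asb genes, Asb1, Asb3, Asb6, Asb7, Asb9, Asb13, Asb16, Asb17 and Asb18, were at low levels. None of their 20 probe sets reached 250 on either array. The highest was at 145.0 in RXRγ mice, against 172.9 in control mice, both from a probe set of Asb7, and no other had a signal above 150. Asb17, known from testis, had 1.3 in RXRγ mice, against 2.1 in control mice. All Asb genes with a signal above 250 on these arrays were thus among the 9 described.

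Asb proteins share the parts Cullin 5, Rnf7 and elongins B and C. None of the genes for these parts passed the threshold with the signals as deposited, averaged per gene. Of 11 genes for the Cullin 5 ligase and its activation, 10 were measured, and RXRγ mice had 2 of them higher and none lower (median log2 ratio -0.14). Over all measured genes 16.8% were higher and 20.1% lower. Cul5 itself had a signal of 364.7 in RXRγ mice, against 409.6 in control mice, and Rnf7 averaged 839.9 in RXRγ mice, against 799.4 in control mice. The higher genes both belong to the pathway that attaches the ubiquitin-like protein Nedd8 to cullins, the step that switches them on. Uba3, the catalytic subunit of the Nedd8-activating enzyme, averaged a signal of 1018.6 in RXRγ mice, against 479.5 in control mice over 3 probe sets, whose log2 ratios ran from 0.93 to 1.21. Ube2f, which transfers Nedd8 to Cullin 5, had 546.8 in RXRγ mice, against 391.6 in control mice over 4 probe sets (log2 ratios 0.34 to 0.73). The gene for Nedd8 itself had 1028.3 in RXRγ mice, against 1013.3 in control mice. Nae1, of the same pathway, had 466.1 in RXRγ mice, against 554.7 in control mice (log2 ratio -0.25). Cops5, which removes Nedd8 again, and Eloc, which encodes elongin C, had log2 ratios of -0.33 and -0.31, within the threshold. The 3 probe sets of Eloc ran from -0.62 to -0.006. After scaling to the array medians, 2 genes of the list were lower.

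Other proteins with a SOCS box dock on the same ligase. Of 21 such genes listed, 8 were measured, 4 were lower in RXRγ mice and 1 was higher, with a median log2 ratio of -0.41. Among all measured genes 20.1% were lower and 16.8% higher. Rab40b, a small GTPase, had a signal of 96.7 in RXRγ mice, against 263.9 in control mice and was thus under 150 in RXRγ mice. Socs2, which restrains growth hormone signalling, averaged a signal of 153.0 in RXRγ mice, against 353.0 in control mice (log2 ratio -1.19), and Pcmtd2 had a log2 ratio of -0.70. Wsb2 was the higher gene, with 733.7 in RXRγ mice, against 428.4 in control mice. Of the lower genes, Pcmtd2 was above 250 on both arrays and the other 3 were not. In all, 4 of the 8 exceeded 250 on both arrays, and these had a median log2 ratio of 0.10 and 1 lower gene.

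Of 15 genes whose products are known to bind Asb proteins, 5 were measured, and 1 was higher and none lower in RXRγ mice. The shares among all measured genes were 16.8% higher and 20.1% lower. Flnc, the muscle filamin, averaged a signal of 977.4 in RXRγ mice, against 734.2 in control mice, a log2 ratio of 0.42 with 0.27 and 0.57 at its 2 probe sets. It was not counted as higher when the brightest probe set alone was used or after scaling to the array medians. Des, which encodes the intermediate filament desmin, had 5191 in RXRγ mice, against 3988 in control mice (log2 ratio 0.38). Jak2, a kinase of cytokine receptors, and Rpn1, a subunit of the oligosaccharyltransferase, had log2 ratios of -0.35 and -0.29. The 2 probe sets of Jak2 had -0.63 and -0.08. The amounts of the proteins were not measured on the arrays.

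Adaptors and ligases of other ubiquitin pathways were set beside the Asb genes. The shares among all measured genes were 20.1% lower and 16.8% higher. Of 16 Kelch genes, whose products serve Cullin 3, 8 were measured, 3 were lower in RXRγ mice and none was higher, with a median log2 ratio of -0.25. Klhl21, Klhl30 and Klhl24 were the lower genes, with log2 ratios of -0.69, -0.53 and -0.42, and Klhl9 had -0.26. The 3 probe sets of Klhl24 ran from -0.63 to -0.13. With loess centring, a pseudocount of 32 or the brightest probe set, 2 Kelch genes were lower. Of 13 other ubiquitin ligase genes of muscle, 5 were measured, 3 were lower and 1 was higher, with a median of -1.13. With genes above 150 on the brighter array included, 7 were measured and their median was -0.046, where that of the Asb genes was -1.01. The lower ones were Fbxo32 (324.6 in RXRγ mice, against 1414 in control mice), Trim63 (1070 in RXRγ mice, against 2636 in control mice) and Trim54 (1138 in RXRγ mice, against 2497 in control mice). Fbxo32 and Trim63 encode atrogin-1 and MuRF1, the ligases of muscle atrophy, and Trim54 encodes a relative of MuRF1. Stub1, a ligase that works with chaperones, was higher by 0.41 on the log2 scale. It was not counted as higher after scaling to the array medians or with a pseudocount of 32.

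**Figure D4:**
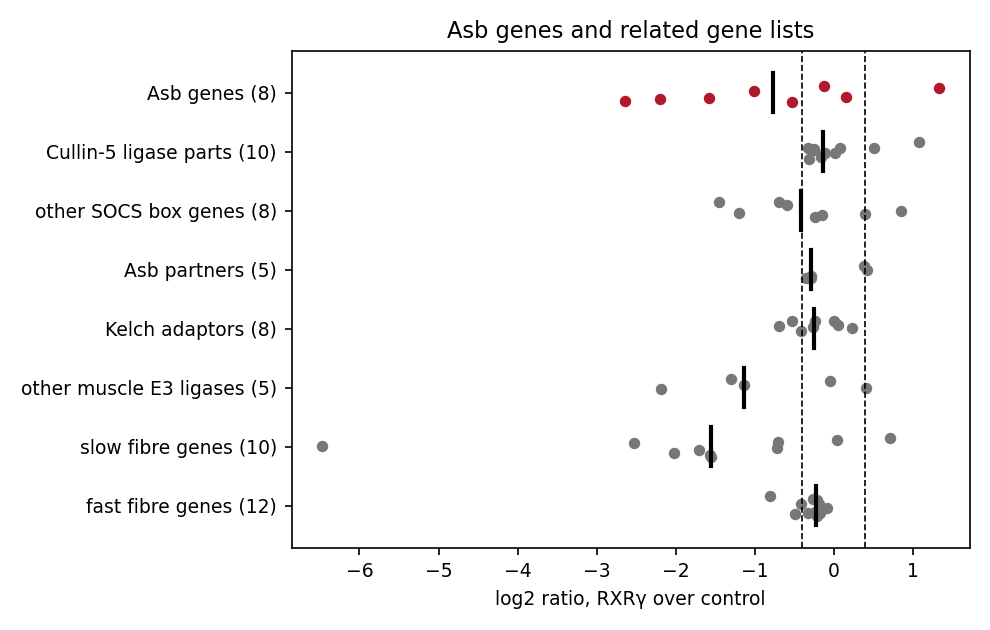
log2 ratio, RXRγ over control mice, of the measured genes of each list (1 point each, vertical scatter without meaning), with the number of measured genes in brackets. Black bars are list medians, and a log2 ratio of 0.4 is dashed on each side of 0; the medians are -0.77 for the Asb genes, -1.13 for the other muscle ligases, -0.41 for the other SOCS box genes and -0.14 for the Cullin 5 ligase parts, and their order depends on the filter on low signals.

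Genes of slow fibres were lower on the array of RXRγ mice as well. Of 10 listed, 8 were lower and 1 was higher, with a median log2 ratio of -1.56. Myh7, the slow myosin heavy chain, had 303.2 in RXRγ mice, against 1754 in control mice. Tnnt1, the slow troponin T, had 188.9 in RXRγ mice, against 767.6 in control mice, and Myl2, a slow myosin light chain, had 893.0 in RXRγ mice, against 2910 in control mice. Myl3, another slow light chain, was at 23.2 in RXRγ mice, against 1747 in control mice. Of 12 fast fibre genes, 3 were lower and none was higher (median -0.22). Among all measured genes 20.1% were lower and 16.8% higher. In whole muscle RNA, fewer fibres of a type and less RNA per fibre cannot be told apart, and the part of the slow fibre genes in the values of the Asb genes was not tested.

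The transgene was seen on the array, since Rxrg had a signal of 9172 in RXRγ mice, against 334.5 in control mice. All 8 markers of skeletal muscle fibres were above 150 on both arrays, and their summed signal was 56987 in RXRγ mice, against 64922 in control mice. The sum rests on the brightest genes. With the threshold of 0.4 on the log2 scale 4 of these 8 markers were lower in RXRγ mice and none was higher. Among all measured genes 20.1% were lower and 16.8% higher. The median log2 ratio of the 8 markers was -0.43. The lower ones were Cacna1s (-1.32) and Ryr1 (-1.23), which encode calcium channels of excitation and contraction, the creatine kinase gene Ckm (-0.75) and the titin gene Ttn (-0.63). The 2 probe sets of Ckm had -1.39 and -0.11, and the 5 of Ttn ran from -1.23 to -0.12. The brightest probe set of Ckm had 10909 in RXRγ mice, against 11776 in control mice. That of Ttn had 9188 in RXRγ mice, against 10334 in control mice. The part of the fibre markers in the values of the Asb genes was not tested. The cardiac markers, whose tissue also expresses Asb genes, were all under 150 on both arrays (0 of 6), with a summed signal of 98.8 in RXRγ mice, against 81.3 in control mice. None of the 3 satellite cell markers reached 150. Of the markers of other cells, those of fibroblasts summed to 10418 in RXRγ mice, against 8597 in control mice, with 5 of 5 genes above 150 on both arrays. Of these 5, Lum alone passed the threshold, with 1770.8 in RXRγ mice, against 699.1 in control mice. The other 4 were within it, and Col1a1 among them had 527.9 in RXRγ mice, against 612.8 in control mice. Adipocyte markers (2 of 4 above 150 on both arrays) summed to 1566 in RXRγ mice, against 1385 in control mice, and Schwann cell markers (2 of 3) to 950.3 in RXRγ mice, against 790.7 in control mice. Leukocyte markers (1 of 6) summed to 879.3 in RXRγ mice, against 745.7 in control mice. The sums of these lists were thus somewhat higher in RXRγ mice, and those of the next were lower. Smooth muscle markers (2 of 4) summed to 984.6 in RXRγ mice, against 1193 in control mice. Endothelial markers summed to 531.1 in RXRγ mice, where 1 of 5 was above 150, against 694.1 in control mice, where 2 were. The 2 erythroid markers with a probe set were under 150 on both arrays and summed to 28.2 in RXRγ mice, against 44.4 in control mice. Their part in the values of the Asb genes was not tested.

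The direction of the 6 Asb genes that passed the threshold was kept under 11 alternatives wherever the gene was still measured. Asb2, Asb11, Asb12 and Asb15 were measured under all of them. For Asb2, Asb11 and Asb12, with 1 probe set each, only median scaling, quantile normalization, loess centring and the pseudocount could move the ratio. Asb2 ran from -1.68 to -1.52 on the log2 scale, Asb11 from -1.11 to -0.96, Asb15 from -0.63 to -0.48 and Asb12 from 1.23 to 1.37. Asb14 and Asb10 dropped out where a signal above 250 was required on both arrays, which left 6 Asb genes with 3 lower and a median of -0.33. Over all genes that filter left 3055, with 501 lower and 371 higher. Asb10 also dropped out where 500 was required on the brighter array.

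**Figure D5:**
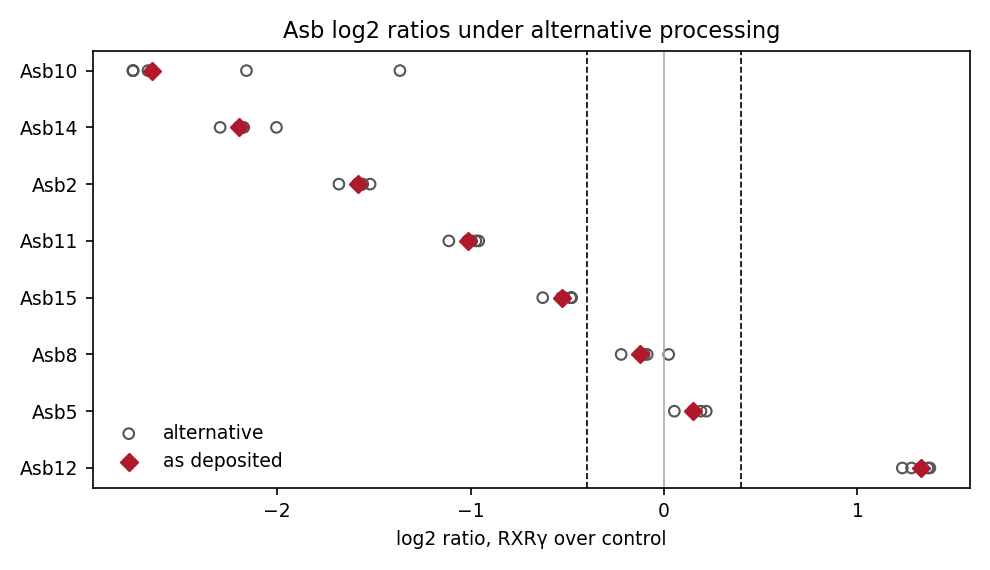
log2 ratio, RXRγ over control mice, of the 8 measured Asb genes with the signals as deposited (diamonds) and under the alternatives (open circles). Log2 ratios of 0.4 and -0.4 are dashed; Asb10 moved most, to -1.37 with a floor of 150, and only Asb8 has values on both sides of 0.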

How the data were processed

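The deposited intensity values, 1 signal per probe set, were made by the authors with the Affymetrix Gene Chip software, which sets matched against mismatched oligonucleotides. The values are linear, none of the 45101 per array was below 0, and the mean without the lowest and highest 2% was 100.0 on both arrays; the median was 24.3 in RXRγ mice, against 22.7 in control mice. The present and absent calls that the study also used, the scaling algorithm and the genome build are not given in the sources used here.

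Probe sets were named through a single gene symbol of the platform annotation (34958, against 932 with several symbols and 9211 without), and no probe set shared with another gene named an Asb gene described here. For each probe set the signal of RXRγ mice was divided by that of control mice and put on the log2 scale without a pseudocount. Probe sets that exceeded 250 on at least 1 array were averaged per gene (3780 genes, 5538 probe sets). Genes past 0.4 count as higher, past -0.4 as lower, and 3 genes with probe sets past both as neither. Signals under 150 give no fold, only a bound computed against 150. Arrays were too few for tests, and their number limits the precision of each value. The steps were tested on simulated data.

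The genes described, the lists and the alternatives were chosen with earlier results of these data known. Named are every Asb gene described, Rxrg, and of each list up to 4 measured genes with the largest change. Cul5, Rnf7, Nedd8, Nae1, Asb7, Asb9, Asb17 and Pdk4 were named after their values were seen. Promoter windows were those of RefSeq for GRCm38.p6. Values were computed in Python 3.11.15 (pandas 2.3.3) and plotted with matplotlib 3.10.9, with limma 3.58.1 in R 4.3.3 for quantile normalization and loess.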

Additional observations from a re-analysis of the deposited data

How the results depend on the processing

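No paired analysis was possible because there is 1 array per genotype, and no replicate could be left out. Of 85 log2 ratios of single Asb genes under 11 alternatives, 84 moved by less than a factor of 1.5 and none of those past the threshold changed sign. The exception was Asb10, at -1.37 with a floor of 150. Asb2, Asb5, Asb11, Asb12 and Asb14 have 1 probe set each. For these genes the filters, the floor and the choice of probe sets could not move the ratio, only remove the gene. Only median scaling, quantile normalization, loess centring and the pseudocount could move it. The median of the Asb genes ran from -1.01 (genes above 150 included, or no filter) to -0.33 (above 250 on both arrays). The count of lower Asb genes was 5 of 8 with the signals as deposited, and 6 of 9 with genes above 150 or no filter. It was 4 of 7 above 500, 4 of 8 at a threshold of 1, and 3 of 6 above 250 on both arrays. Over all genes, 760 of 3780 were lower as deposited, 1028 of 5359 above 150 and 4114 of 18194 without a filter. Lower were also 438 of 2067 above 500, 155 of 3780 at a threshold of 1, and 501 of 3055 above 250 on both arrays. The cause of the changes below was not tested, beyond the fewer or more genes that a filter leaves and the stricter call at a threshold of 1.

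Over all genes, 982 were higher when 150 on the brighter array sufficed. When 500 was required there were 340 higher and 438 lower, with 250 on both arrays 371 and 501, without a filter 5208 and 4114, and at a threshold of 1 there were 191 and 155. Without a filter, 1 of the other Asb genes was higher and 3 were lower, 1 Cullin 5 ligase gene was lower, 6 other SOCS box genes and 6 Asb partners were higher, 2 Asb partners and 8 Kelch genes were lower, and of the muscle ligases 2 were higher and 5 lower (median log2 ratio -0.050). After median scaling, 2 Cullin 5 ligase genes and 1 Asb partner were lower and 0 Asb partners and 0 muscle ligases were higher. Quantile normalization, loess centring or the brightest probe set gave 2 higher SOCS box genes, loess centring 2 higher Asb partners, and the brightest probe set, or leaving out names in _x_at or _s_at, 0. With a signal above 150, 2 Asb partners and 2 muscle ligases were higher, 5 Kelch genes were lower, and the median of the muscle ligases was -0.046. Above 500 there were 1 lower SOCS box gene (median 0.10), 1 lower Kelch gene and 0 higher slow fibre genes. With 250 on both arrays there were 1 lower SOCS box gene (median 0.10) and 5 lower slow fibre genes (median -0.72). A pseudocount of 32 left 0 muscle ligases higher, and leaving out names in _x_at or _s_at 0 slow fibre genes. At a threshold of 1 the Cullin 5 ligase list had 1 higher gene, the SOCS box list 0 higher and 2 lower, and 0 were higher among Asb partners, muscle ligases and slow fibre genes and 0 lower among Kelch and fast fibre genes.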
